A study of Mus musculus with 2 samples.

Results

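Cytosine methylation at CpG dinucleotides is written, copied and erased by a small set of enzymes, and the genes of 7 of them, Dnmt1, Uhrf1, Dnmt3a, Dnmt3b, Dnmt3l, Tet1 and Tet2, were followed in mouse embryoid bodies. They were chosen by name, as the genes that write or erase the mark, and 7 of the 8 names were found among the 20207 genes of the tables. Tet3 was not analysed here, since the library tables list no gene under that name. All 7 were expressed, and 0 of them were below 1 RPKM (reads per kilobase of gene model, scaled to the depth of the library) in both libraries.

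Embryoid bodies are aggregates in which embryonic stem cells differentiate in suspension, and these were collected on day 6 for sequencing of total RNA. Each of the 2 libraries pooled the RNA of 2 inducible short hairpin RNAs against HoxBlinc, a long noncoding RNA of the HoxB cluster, so both groups carried hairpins. The group with doxycycline received 2 ug/ml from day 2, which induces the hairpins, and the other group received 0 ug/ml. The labels name 2 stem cell lines, R1/E and CGR8 MHC-GFP, for the series without assigning them to libraries, and the cells had been kept on irradiated mouse embryonic fibroblasts. With 1 library a group there is no replicate check and no test, every comparison is between these libraries, and an effect of doxycycline itself cannot be told apart from that of the hairpins. The total of all gene counts was 37046449 for the library without doxycycline and 24924921 for the other. In RNA of whole embryoid bodies, fewer cells of a type and less RNA per cell cannot be told apart.

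Dnmt3a and Dnmt3b are the de novo methyltransferases, which place methyl groups on unmethylated DNA. Dnmt3l is a catalytically inactive relative that stimulates them and is typical of stem cells and germ cells. Dnmt1 copies the methylation pattern onto the new strand after DNA replication, and Uhrf1 recognises the half-methylated site and brings Dnmt1 to it. The Tet dioxygenases oxidise methylated cytosine, the first step of its removal. In the mouse embryo these genes are known for the wave of methylation that passes over the epiblast around implantation, and embryonic stem cells are rich in Dnmt3b, Dnmt3l, Tet1 and Tet2.

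The starts of 4 of the genes show what the tables counted and how the promoters differ in sequence. In the authors' tables (mm9) Dnmt3a spans chr12:3891744-3914443, which is 22700 bases. That is the span of a short annotated transcript, Dnmt3a-203 (GENCODE M21), whereas the longest annotated Dnmt3a transcript spans 107414 bases. Lengths implied by RPKM were scaled by the median over the analysed genes, which was Dnmt3a itself. Its match to the 5424 bases of the short transcript was therefore fixed in advance. On that scale Tet1 had 13985 bases without doxycycline, beside 13986 of its nearest transcript, and Tet2 9181 beside 9179. By its span, the Dnmt3a model starts at the internal promoter, which makes the shorter protein form typical of embryonic stem cells. Exons of the long form upstream of it lie outside the model. Reads of the long and short forms were not separated within it, so the Dnmt3a values are not shown to be those of the short form alone. The Uhrf1 model, chr17:56443736-56462909, has the 19174-base span of Uhrf1-202. The following stretches are upstream of the start of Uhrf1-202 (chr17:56304063-56304312, plus strand), Dnmt3l-201 (chr10:78049592-78049841, plus strand), Dnmt3a-203 (chr12:3891494-3891727, plus strand) and, for 30 bases only, Dnmt1-203 (chr9:20952824-20952853, minus strand), from RefSeq on GRCm38.p6. Capitals mark E2F motifs (TTTCCCGC, TTTCGCGC, TTTGGCGC or TTTGCCGC on either strand) in Uhrf1 and Dnmt1, and a long GC box (GGGGCGGGG, either strand) and an E-box (CACGTG) in Dnmt3l and Dnmt3a.
Dnmt1: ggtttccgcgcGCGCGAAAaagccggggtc
Uhrf1: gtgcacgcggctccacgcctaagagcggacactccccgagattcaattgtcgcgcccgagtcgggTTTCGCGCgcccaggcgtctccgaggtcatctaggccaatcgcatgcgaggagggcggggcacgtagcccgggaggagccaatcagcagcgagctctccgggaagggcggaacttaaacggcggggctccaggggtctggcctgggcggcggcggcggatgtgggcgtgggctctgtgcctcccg
Dnmt3l: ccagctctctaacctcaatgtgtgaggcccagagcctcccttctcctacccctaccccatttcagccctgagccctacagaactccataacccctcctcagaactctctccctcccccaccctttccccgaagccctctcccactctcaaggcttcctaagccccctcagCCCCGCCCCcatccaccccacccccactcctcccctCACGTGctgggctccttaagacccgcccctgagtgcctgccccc
Dnmt3a: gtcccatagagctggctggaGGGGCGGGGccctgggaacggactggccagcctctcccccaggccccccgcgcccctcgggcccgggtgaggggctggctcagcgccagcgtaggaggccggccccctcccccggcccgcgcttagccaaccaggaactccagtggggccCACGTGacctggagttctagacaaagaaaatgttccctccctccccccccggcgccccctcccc

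An E2F motif was present in 1.86% of all 32851 windows of 250 bases upstream of a start, and among the windows of the 8 named genes it was found in 1 of Dnmt1 and 1 of Uhrf1. The windows of Dnmt1-201 and Dnmt1-202 held none. The matching windows stood at percentiles 90.4 (Dnmt1) and 94.1 (Uhrf1) of CpG content, and the share among windows of like CpG content was not computed. E2F factors are known to drive genes of DNA replication. The Dnmt1 match lies 219 bases upstream of the start of Dnmt1-203 and inside the first exon of another transcript, Dnmt1-201, which has the span nearest to the listed Dnmt1 model. The long GC box was present in 10.4% and the E-box in 6.02% of all windows. Among the windows of the 8 named genes the GC box was found in 1 each of Dnmt3l, Dnmt3a and Dnmt3b. The E-box was found in 1 each of Dnmt3l and Dnmt3a. Dnmt1, Uhrf1, Dnmt3l and Dnmt3a had more than 1 window each, so these counts are not shares per window. The other windows of Uhrf1, Dnmt3l and Dnmt3a held none of these motifs. The starts of Uhrf1-202 and Dnmt3l-201 differ in CpG content, with 30 CpG in the 250 bases of Uhrf1 and 4 in those of Dnmt3l, beside a median of 6 over all windows. The motifs were chosen after the sequences and levels had been seen, and a match describes the letters and not a bound site.

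Levels per length differed by over an order of magnitude among the genes. Without doxycycline the RPKM was 65.8 for Dnmt1, 61.5 for Uhrf1, 30.4 for Dnmt3b, 14.4 for Dnmt3l, 8.36 for Dnmt3a, 4.00 for Tet1 and 2.56 for Tet2. With doxycycline it was 43.3 for Dnmt1, 39.0 for Uhrf1, 21.9 for Dnmt3b, 6.94 for Dnmt3l, 7.73 for Dnmt3a, 3.91 for Tet1 and 1.79 for Tet2. The maintenance genes were thus highest, the de novo genes intermediate and the Tet genes lowest in both libraries. Among the 11063 measured genes, those that reached 1 RPKM in either library, Dnmt1 ranked 582 without and 855 with doxycycline, and Tet2 ranked 9281 and 9628.

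**Figure D1:**
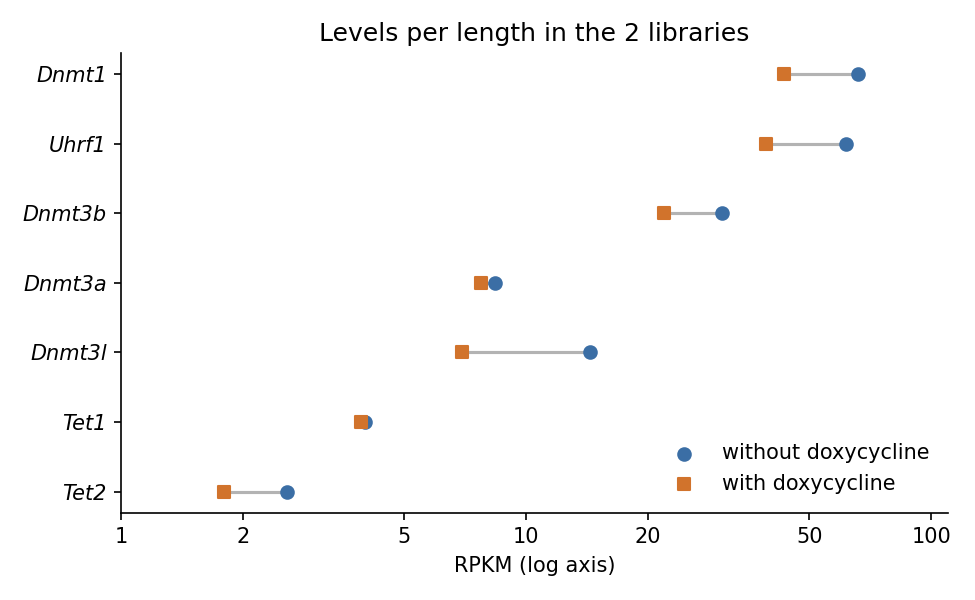
RPKM (log axis) of 7 genes in the library without (circles) and with doxycycline (squares), 1 library each. Dnmt3l and Dnmt3a change places in the order, at 14.4 and 8.36 without and 6.94 and 7.73 RPKM with doxycycline.

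The order of levels was the same in both libraries except for Dnmt3l and Dnmt3a. Dnmt3b was 2.12 times Dnmt3l without doxycycline (exact 95% interval 2.00 to 2.24), and Dnmt3l was then 1.72 times Dnmt3a (1.61 to 1.83). With doxycycline Dnmt3a was 1.11 times Dnmt3l (1.01 to 1.23). That interval included 1 with all counts halved (0.970 to 1.28), as both mates of a read pair appear to have been counted. Dnmt1 exceeded its neighbour Uhrf1 by 1.07 times without (1.05 to 1.09) and 1.11 times with doxycycline (1.08 to 1.15). Intervals cover counting error only.

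Between the libraries, 0 of the 7 genes were at least 2-fold lower or higher on the log2(RPKM + 0.5) scale, where 2.64% of 11063 measured genes were lower and 0.262% higher. Folds below are ratios of CPM (counts scaled to the gene total of each library). By a looser rule, an exact 95% counting interval of the CPM fold that excluded 1, 5 of the 7 genes were lower with doxycycline and 1 was higher. Over 10964 measured genes 36.8% were lower and 28.6% higher by that rule. Over all measured genes, the median log2 ratio was -0.03 in CPM, -0.20 in RPKM and -0.43 in RMS-normalized RPKM (RPKM divided by its root mean square in each library). The percentile of each gene's ratio among the 10958 genes with reads in both libraries is therefore given as well, since it does not depend on the scaling.

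Dnmt3l (mm9 chr10:77512587-77526360) differed most. It had 1469 counts without and 535 with doxycycline, or 39.7 and 21.5 CPM. This was 1.85-fold lower with doxycycline (1.67 to 2.04), and its ratio stood at percentile 3.58 of all measured genes. Its log2(RPKM + 0.5) ratio of -0.999 lay just inside the 2-fold limit, and with a pseudocount of 0.1 it was past it.

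The maintenance genes were lower by similar factors. The Dnmt1 model lies at mm9 chr9:20711653-20757317. Uhrf1 had 12910 counts (348 CPM) without and 6177 counts (248 CPM) with doxycycline, 1.41-fold lower (1.36 to 1.45, percentile 9.42). Dnmt1 had 21200 counts (572 CPM) and 10530 counts (422 CPM), 1.35-fold lower (1.32 to 1.39, percentile 11.3). The fold of Dnmt1 over that of Uhrf1 was 1.04, with an interval of 0.999 to 1.08 that included 1. The share of Dnmt1 in the summed RPKM of both genes was 51.7% without and 52.6% with doxycycline.

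The de novo methyltransferases did not move together. Dnmt3b (mm9 chr2:153475190-153513466) had 7831 counts (211 CPM) without and 4257 counts (171 CPM) with doxycycline, 1.24-fold lower (1.19 to 1.29, percentile 18.4). Dnmt3a had 2777 counts (75.0 CPM) and 1937 counts (77.7 CPM), a CPM ratio with over without doxycycline of 1.04, with an interval of 0.978 to 1.10 that included 1, and of 0.925 in RPKM. Its ratio stood at percentile 62.2. The share of Dnmt3a in the summed RPKM of the de novo genes was 21.6% without and 26.1% with doxycycline. Per length, Dnmt3a was at 0.275 of Dnmt3b without and 0.353 with doxycycline, a ratio of folds of 1.28 (1.20 to 1.38) that does not depend on library scaling.

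The Tet genes also differed from each other. Tet2 (mm9 chr3:133126641-133207354) had 1439 counts (38.8 CPM) without and 759 counts (30.5 CPM) with doxycycline, 1.28-fold lower (1.17 to 1.39, percentile 15.3). Tet1 (mm9 chr10:62267319-62342762) had 3431 counts (92.6 CPM) and 2530 counts (102 CPM), 1.10-fold higher in CPM (1.04 to 1.15) but with a ratio with over without doxycycline of 0.978 in RPKM and 0.831 in RMS-normalized RPKM. The Tet1 ratio stood at percentile 72.8, above the median of all genes under each scaling. Tet1 made up 61.0% of the summed Tet1 and Tet2 RPKM without and 68.6% with doxycycline. The ratio of the Tet1 fold over the Tet2 fold was 1.40 (1.26 to 1.55).

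**Figure D2:**
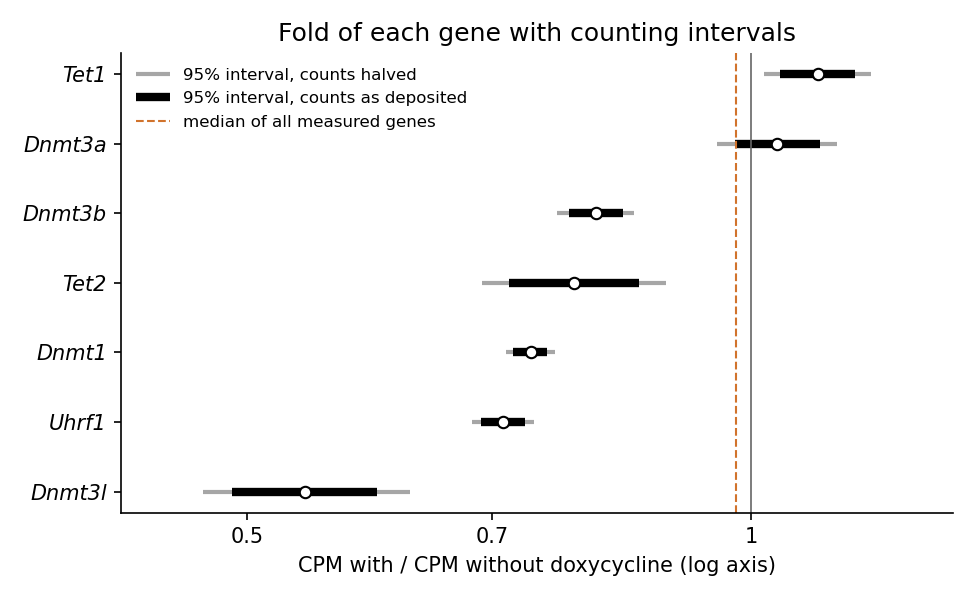
CPM with over CPM without doxycycline (log axis) for each gene, with exact 95% counting intervals from the counts as deposited (thick) and halved (thin); the dashed line is the median of all measured genes. Dnmt3l is farthest below 1, and Dnmt3a and Tet1 lie at 1.04 and 1.10.

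Ratios between genes compare the 7 without any choice of library scaling. Of the 21 pairs, 17 had an interval of the ratio of folds that excluded 1, and 16 with all counts halved. The share over pairs of all measured genes was not computed, so these counts are not read as a trait of the 7. Single-gene intervals lay below 1 for 36.8% and above 1 for 28.6% of measured genes. The folds of Tet1 and Dnmt3a were not distinguishable within counting error, with a ratio of 1.06 (0.978 to 1.14). The same held for Dnmt3b and Tet2, at 1.03 (0.936 to 1.14), and for Tet2 and Dnmt1, at 1.06 (0.968 to 1.16). The 2 widest gaps were those of Tet1 and Dnmt3a from Dnmt3l. The fold of Tet1 was 2.02 times that of Dnmt3l (1.81 to 2.27), that of Dnmt3a 1.92 times (1.70 to 2.15) and that of Dnmt3b 1.49 times (1.34 to 1.66). Tet1 against the maintenance genes gave 1.49 for Dnmt1 (1.40 to 1.57) and 1.54 for Uhrf1 (1.45 to 1.64). The pair whose call depended on halving was Tet2 over Uhrf1, at 1.10 (1.00 to 1.21, halved 0.963 to 1.26).

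**Figure D3:**
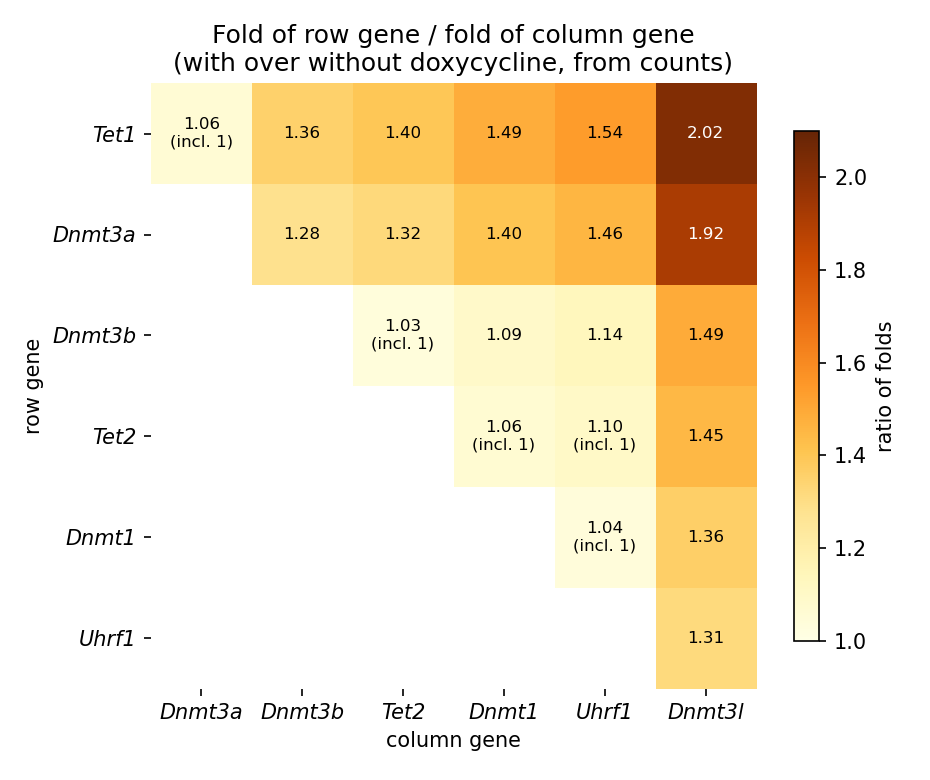
Each cell gives the fold (with over without doxycycline) of the row gene divided by that of the column gene, from counts; "incl. 1" marks pairs whose interval from halved counts included 1. Within each row the value is highest in the Dnmt3l column, from 1.31 for Uhrf1 to 2.02 for Tet1.

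As families, the summed RPKM of Dnmt1 and Uhrf1 was 127 without and 82.3 with doxycycline, a ratio with over without of 0.647. For Dnmt3a and Dnmt3b it was 38.7 and 29.6, and for Tet1 and Tet2 6.56 and 5.70. Relative to the median of all genes these log2 ratios were -0.43, -0.19 and -0.01. The maintenance sum was 19.4 times the Tet sum without and 14.4 times with doxycycline, and the de novo sum 5.90 and 5.19 times.

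Genes that work with maintenance methylation were mostly slightly lower. Of the 8, 0 were past 2-fold in either direction (all measured genes 2.64% lower and 0.262% higher). A counting interval below 1 was found for 7 and above 1 for 0 (background 36.8% and 28.6%). The median log2 CPM ratio was -0.17 beside -0.03 for all measured genes. Lig1, the ligase of replication, was lowest at 1.44-fold lower (1.37 to 1.51). Pcna, the replication clamp to which Dnmt1 binds, was 1.15-fold lower (1.12 to 1.19), and Cdca7, a partner of Hells, 1.24-fold lower (1.18 to 1.30). Hells itself, a remodeller that opens nucleosomal DNA to methylation, was at 27.4 with and 31.0 RPKM without doxycycline, with a CPM ratio of 0.993 (0.953 to 1.03). Uhrf2, a relative of Uhrf1, was 1.10-fold lower (1.06 to 1.15), and its interval did not overlap that of Uhrf1. Usp7, which stabilises Dnmt1 and Uhrf1, was 1.04-fold lower in CPM (1.01 to 1.06).

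Most markers of proliferating and of pluripotent cells were also lower with doxycycline. Of 16 S-phase genes 15 were listed, 0 at zero counts, with a summed RPKM of 603 without and 416 with doxycycline. All 14 with a single gene model had an interval below 1, beside 36.8% of all measured genes, and their folds lower ran from 1.08 for Rrm1 to 1.70 for Rrm2, with a median of 1.23. Of 10 pluripotency markers 9 were listed, 0 at zero counts, with a summed RPKM of 182 without and 129 with doxycycline. Of these 8 had an interval below 1 and 1, Esrrb, above (all measured genes 36.8% and 28.6%), with a median of 1.24-fold lower. The 6 markers of primed epiblast summed to 42.0 and 41.7 RPKM, with 1 interval below 1 and 3 above (all measured genes 36.8% and 28.6%), Fgf5 being highest at a CPM ratio of 1.96. The part of these cell states in the values of the methylation genes was not tested. Fibroblast markers, listed for the feeder layer, summed to 111 RPKM without and 62.0 with doxycycline over 10 genes, of which 7 were measured. All 7 measured ones had an interval below 1 (all measured genes 36.8%), 4 were at least 2-fold lower (all measured genes 2.64%) and the median was 2.80-fold lower. Pdgfrb reached 1 RPKM only without doxycycline, so the fibroblast counts and median partly reflect the filter. Dcn (1 and 2 counts), Lum (6 and 2) and Thy1 (34 and 15) were below 1 RPKM in both libraries. Whether any of these reads came from feeder cells was not tested. Visceral endoderm markers summed to 27.1 and 5.80 RPKM over 8 genes. All 6 measured ones had an interval below 1 (all measured genes 36.8%). Of these 6, 5 were at least 2-fold lower (all measured genes 2.64%), with a median of 6.82-fold lower. Ttr, Apoa1, Apob and Hnf4a reached 1 RPKM only without doxycycline, so these counts and the median partly reflect the filter. Below 1 RPKM in both libraries, Amn was 3.36-fold (1.98 to 6.04) and Cubn 1.45-fold lower (1.12 to 1.89). Neural markers summed to 17.1 and 15.4 RPKM over 5 genes, 2 of the 4 measured having an interval below 1 and 2 above (all measured genes 36.8% and 28.6%). Pax6 was 6.32-fold and Tubb3 3.80-fold lower. Both reached 1 RPKM only without doxycycline, so the 2 neural intervals below 1 partly reflect the filter. Sox1 and Nes had CPM ratios of 1.35 and 1.14, and Neurog2, with 15 and 0 counts, was below 1 RPKM in both libraries. The part of these other cell types was not tested either.

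Among 9 genes that direct or protect methylation at imprints and repeats, 1 was at least 2-fold lower and 0 higher, beside 2.64% and 0.262% of all measured genes. Of the 9, 6 had a counting interval below 1 and 2 above, beside 36.8% and 28.6%. Dppa3, which in the mouse restrains Uhrf1 and protects the maternal genome from Tet3, had 255 counts without and 50 with doxycycline and was 3.43-fold lower (2.53 to 4.74). Prdm14, which represses Dnmt3b and Dnmt3l in naive stem cells, had 198 and 45 counts, 2.96-fold lower (2.13 to 4.19). It was not past 2-fold on the log2(RPKM + 0.5) scale, being at 1.25 and 0.375 RPKM. Prdm14 reached 1 RPKM only without doxycycline, so the count of 6 and the median of the 9 partly reflect the filter. Zfp57, which binds methylated imprints, had a CPM ratio of 1.09 (1.00 to 1.18), and its corepressor Trim28 was 1.19-fold lower (1.17 to 1.21). Nsd1, a histone methyltransferase whose mark Dnmt3a reads, was highest at a CPM ratio of 1.18 (1.16 to 1.21). The median log2 CPM ratio of the 9 was -0.14.

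Of 21 genes of oxidised base removal and regulators of Tet proteins, 18 were measured, 7 had a counting interval below 1 and 9 above, beside 36.8% and 28.6% of all measured genes. Of the 18, 0 were past 2-fold (all measured genes 2.64% lower and 0.262% higher), and the median log2 CPM ratio was 0.02. Tdg, the glycosylase that excises the oxidised bases, was at 23.1 with and 24.6 RPKM without doxycycline, with a CPM ratio of 1.05 (1.01 to 1.10). Ogt, a partner of Tet proteins, had a CPM ratio of 1.08 (1.05 to 1.12). Gadd45b was highest at 1.44 (1.38 to 1.50) and Xrcc1, a scaffold of base excision repair, lowest at 1.32-fold lower (1.25 to 1.40). Cxxc5, a CXXC protein that binds CpG DNA, was 1.08-fold lower (1.03 to 1.14), and its relative Cxxc4 was low, at 0.569 and 0.527 RPKM.

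**Figure D4:**
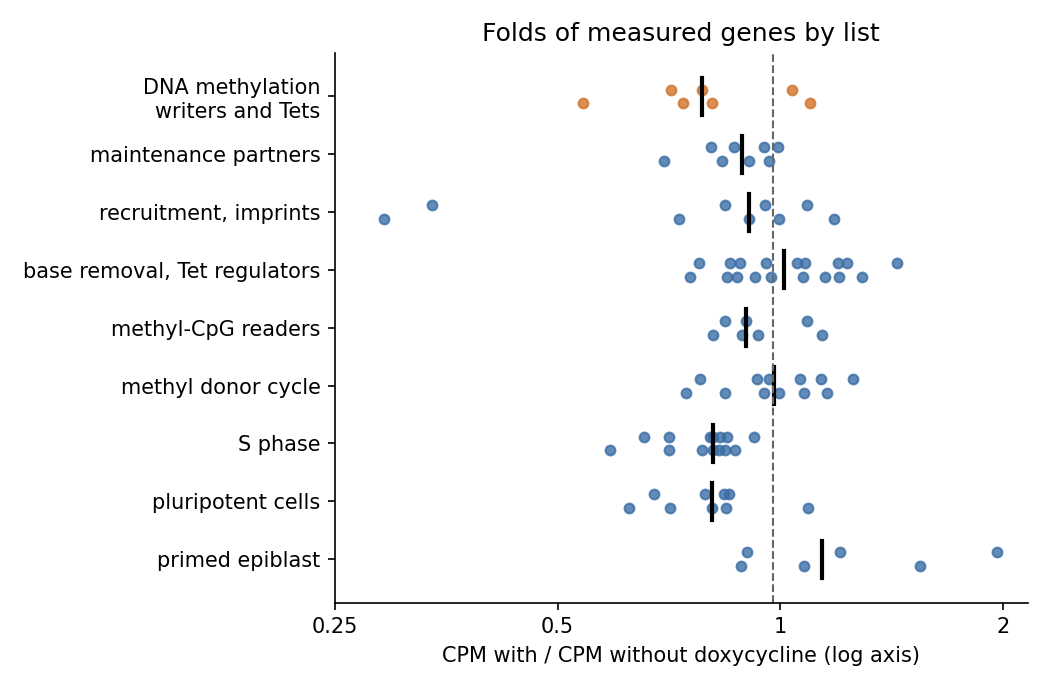
CPM with over without doxycycline (log axis) of each measured gene in the lists drawn. Bars are list medians and the dashed line is the median of all measured genes. The writers and Tet genes run from 0.541 to 1.10, with a median of 0.784. S-phase and pluripotency genes have medians of 0.812 and 0.808. The medians of base removal and the methyl donor cycle lie near the dashed line. Not drawn are the germline (median 0.642), fibroblast (0.357), visceral endoderm (0.147) and neural (0.547) lists.

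Genes of proteins that read the mark differed little. Of 7 methyl-CpG readers 4 had an interval below 1 and 1 above (all measured genes 36.8% and 28.6%), 0 were past 2-fold (all measured genes 2.64% lower and 0.262% higher), and the median log2 CPM ratio was -0.15. Mbd2, the methyl-binding subunit of a NuRD complex, was 1.12-fold lower (1.03 to 1.23). Mbd3, a NuRD subunit without strong binding to methylated DNA, had a CPM ratio of 0.934 (0.869 to 1.00). Zbtb33, the zinc finger reader Kaiso, was highest at 1.14 (1.06 to 1.23), and Zbtb4 lowest at 1.23-fold lower (1.11 to 1.37).

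The methyl donor cycle, which supplies S-adenosylmethionine to the methyltransferases, lay at the median of all genes. Of 14 genes 12 were measured, 3 had an interval below 1 and 4 above (all measured genes 36.8% and 28.6%), 0 were past 2-fold (all measured genes 2.64% lower and 0.262% higher), and the median log2 CPM ratio was -0.03. Mat2a, which makes S-adenosylmethionine, was 1.19-fold lower (1.13 to 1.25). Ahcy, which clears the product that inhibits the methyltransferases, was 1.28-fold lower (1.25 to 1.32), from 88.6 to 61.6 RPKM. Shmt1 was lowest at 1.34-fold lower (1.25 to 1.44), and Ahcyl2, a relative of Ahcy, highest at a CPM ratio of 1.26 (1.17 to 1.34).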

How the data were processed

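Total RNA of 2 pooled libraries was sequenced as read pairs, per the labels' protocols. The submitters' processing notes name Bowtie2 and mm9. Counting program, annotation and strand setting were not given in the sources used here. The authors deposited, per the file headers, an RPKM and a read count for each gene. The deposited counts are estimated counts (1062 and 825 values not whole without and with doxycycline), written with 4 significant digits, and were rounded to whole numbers for intervals. The authors' RMS-normalized RPKM is the ratio of RPKM to the library's root mean square RPKM. Library tables were joined by gene name, since the merged tables hold other values at 140 genes, 0 of them among the 7.

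Ratios of CPM carry exact conditional binomial (Clopper-Pearson) 95% intervals, and ratios of 2 genes' folds are conditional odds ratios with exact 95% intervals (scipy 1.17.1). A floor of 3 counts is 0.0810 and 0.120 CPM. Genes with 2 counts outnumber those with 1 count, by 846 to 583 without and 603 to 296 with doxycycline, as if mates were counted singly. Ratios of counts were not read for 237 genes whose models differ between the tables. In a simulation of the CPM folds with 10964 genes, of which 200 were changed, 95.1% of intervals held the true fold. It drew independent (Poisson) counts, for which such intervals hold by design, so it checks the code only. Mates counted singly were not simulated. The TMM alternative used edgeR 4.0.16. Named genes were all members, 22 partners fixed by role and the highest and lowest measured gene of each list; some of these are not reported here singly. Rrm1, Rrm2, Esrrb, Fgf5, Pax6, Tubb3, Sox1, Nes, Neurog2 and Asz1 were named after their values were seen. So were Ttr, Apoa1, Apob, Hnf4a, Amn, Cubn, Pdgfrb, Dcn, Lum and Thy1. Members and lists were chosen with earlier results of these data known.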

Additional observations from a re-analysis of the deposited data

How the results depend on the processing

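No paired analysis was possible because each group has 1 library, so no library could be left out either. Library scaling moved the CPM ratios (with over without doxycycline) of single genes. In RPKM, and equally in the merged table, the ratio was 0.658 for Dnmt1, 0.634 for Uhrf1, 0.721 for Dnmt3b, 0.925 for Dnmt3a, 0.483 for Dnmt3l, 0.699 for Tet2 and 0.978 for Tet1, which is thereby below 1. In RMS-normalized RPKM it was 0.560 for Dnmt1, 0.539 for Uhrf1, 0.613 for Dnmt3b, 0.786 for Dnmt3a, 0.410 for Dnmt3l, 0.594 for Tet2 and 0.831 for Tet1, again below 1. TMM factors gave 0.771 for Dnmt1, 0.743 for Uhrf1 and 0.844 for Dnmt3b. Scaling shifts all genes alike: over all measured genes the median log2 ratio was -0.20 in RPKM and -0.43 in RMS-normalized RPKM. Centring on the median or leaving 11 highly counted genes out of the totals kept the 7 values inside their intervals, and the 42 values of pair ratios under alternatives did so too.

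Of the 7 genes 1, Dnmt3l, was past 2-fold lower with a pseudocount of 0.1 or in RMS-normalized RPKM. Of all 11063 measured genes, the 292 lower became 406 with a pseudocount of 0.1 and 450 in RMS-normalized RPKM. The 292 became 178 with a pseudocount of 1, 114 at an RPKM of at least 5 and 193 centred. The 29 higher became 46 with a pseudocount of 0.1, 18 at an RPKM of at least 5, 51 in CPM, 50 centred and 63 in the merged table. With no filter the median of the base removal list relative to all genes was 0.19 in place of 0.05, and that of germline genes -0.37 in place of -0.61; at an RPKM of at least 5 the latter was 0.20, from Sycp3 alone. Shares within a family by counts in place of RPKM moved with gene length. Levels per kilobase of the listed models were not run, since the tables give no exon length.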

Other observations

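Promoter methylation is known to keep a set of germline genes silent in mouse somatic cells. Of 16 such genes 6 reached 1 RPKM in either library. Of these 6, 5 had a counting interval below 1 and 1 above (all measured genes 36.8% and 28.6%). At least 2-fold lower with doxycycline were 2 of the 6 and 0 higher, beside 2.64% and 0.262% of all measured genes. The median of the 6 was 1.56-fold lower. Ddx4, the Vasa helicase of germ cells, went from 487 counts without to 226 counts with doxycycline and was 1.45-fold lower (1.24 to 1.71). Dazl, a germ cell RNA-binding protein, had 264 and 137 counts, 1.30-fold lower (1.05 to 1.61). Sycp3, a component of the synaptonemal complex, was listed at 14.0 RPKM without and 14.1 RPKM with doxycycline, a CPM ratio of 1.13 (1.02 to 1.24). Tuba3a was lowest at 3.66-fold lower, but it has near-identical copies to which its reads may belong. Tuba3a reached 1 RPKM only without doxycycline, so the count of 2 and the median of these genes partly reflect the filter. Asz1 had 2 and 0 counts, under the floor in both libraries. No methylation was measured in these libraries, and neither a change in methylation nor its part in these values was tested.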
